A study of Arabidopsis thaliana with 18 samples.

Results

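Loci of Arabidopsis thaliana that carry flavonol synthesis were followed in every library of the series. They are 10 of the 24953 genes (12 of the 32811 transcripts) in the deposited tables, and all 10 were found by their locus identifiers. The set holds the 5 enzyme genes CHS, CHI, F3H, F3'H and FLS1, the transcription factor genes MYB12 and MYB111, and the glycosyltransferase genes UGT78D1, UGT78D2 and UGT91A1. UGT91A1 was selected on its CPM difference between the genotypes at ZT4, which was among the largest there, so that contrast is described with no test. On TAIR10.1, CHS (AT5G13930) lies at chr5:4488476-4490264, CHI (AT3G55120) at chr3:20430059-20431597, F3H (AT3G51240) at chr3:19025192-19026872, F3'H (AT5G07990) at chr5:2560328-2563137 and FLS1 (AT5G08640) at chr5:2803833-2805606. MYB12 (AT2G47460) lies at chr2:19476326-19479597, MYB111 (AT5G49330) at chr5:19998823-20001572, UGT78D1 (AT1G30530) at chr1:10814612-10816615, UGT78D2 (AT5G17050) at chr5:5607788-5609589 and UGT91A1 (AT2G22590) at chr2:9592956-9594579.

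mRNA was sequenced from whole seedlings of 2 genotypes in the Columbia (Col-0) background, SOB3-D and sob3-6, with 3 biological replicates of each at ZT4, ZT9 and ZT24. SOB3-D overexpresses SOB3, which encodes an AT-hook protein of the AHL family, and sob3-6 has in the same copy an amino-acid change within the AT-hook and acts as a dominant negative. Both genotypes therefore carry the SOB3-D allele, and neither is a wild type. The labels give the seedlings as 5 days old at ZT4 and ZT9 and as 6 days old at ZT24, so time of day and age cannot be told apart in comparisons with ZT24. The photoperiod was 8 h light and 16 h darkness at 22 °C, and the medium held 1% sucrose. ZT counts hours from dawn, so that ZT4 lay in the light, ZT9 was 1 h after dusk and ZT24 was the next dawn. The genotypes of a replicate set came from the same plate or plates.

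Flavonols are ultraviolet-absorbing phenolic compounds that plants store as glycosides. Chalcone synthase (CHS) joins a coumaroyl and malonyl units into a chalcone, chalcone isomerase (CHI) closes the ring, flavanone 3-hydroxylase (F3H) and flavonoid 3'-hydroxylase (F3'H) add hydroxyl groups, and flavonol synthase (FLS1) forms the flavonols kaempferol and quercetin. MYB12 and MYB111 are R2R3-MYB factors that activate these enzyme genes in Arabidopsis seedlings, and light acts on the pathway through the bZIP factor HY5. UGT78D1 attaches rhamnose and UGT78D2 glucose to the 3-position of flavonols. UGT91A1 belongs to the same family of UDP-glycosyltransferases.

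The stretch of 250 bases before the annotated start of each gene was read from the RefSeq TAIR10.1 assembly and searched on both strands for the G-box (CACGTG, a site of bZIP and bHLH factors), for 3 AC elements that R2R3-MYB factors can bind (ACCTACC, then the variant ACCAACC, and as the last one ACCTAAC), and for the ACGT core that the G-box also contains. The G-box occurred in 3 of the 10 windows, those of CHS, F3H and MYB12, against 6.49% of 27443 such windows. None of the 3 AC elements occurred in the 10 windows, and they occur in 1.16%, 2.69% and 2.46% of all windows. Below are the 3 windows with a G-box, in capitals, and for comparison those of UGT91A1, which had the most negative difference of the set at ZT4, and UGT78D1, which was called higher in sob3-6 at ZT9 and ZT24, all 5′ to 3′ on the strand of the gene.
CHS: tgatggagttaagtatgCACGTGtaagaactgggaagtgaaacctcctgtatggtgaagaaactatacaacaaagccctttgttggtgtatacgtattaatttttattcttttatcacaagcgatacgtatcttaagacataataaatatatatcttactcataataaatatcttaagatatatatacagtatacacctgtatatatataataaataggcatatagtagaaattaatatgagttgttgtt
F3H: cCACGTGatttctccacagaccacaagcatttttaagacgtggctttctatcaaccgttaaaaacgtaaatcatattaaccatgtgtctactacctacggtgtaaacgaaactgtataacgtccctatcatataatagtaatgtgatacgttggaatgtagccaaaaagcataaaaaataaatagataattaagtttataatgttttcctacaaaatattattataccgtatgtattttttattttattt
MYB12: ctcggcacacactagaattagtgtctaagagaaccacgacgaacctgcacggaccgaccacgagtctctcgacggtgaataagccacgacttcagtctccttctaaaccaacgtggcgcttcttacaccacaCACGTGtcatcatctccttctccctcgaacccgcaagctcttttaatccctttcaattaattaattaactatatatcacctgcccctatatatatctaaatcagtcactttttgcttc
UGT91A1: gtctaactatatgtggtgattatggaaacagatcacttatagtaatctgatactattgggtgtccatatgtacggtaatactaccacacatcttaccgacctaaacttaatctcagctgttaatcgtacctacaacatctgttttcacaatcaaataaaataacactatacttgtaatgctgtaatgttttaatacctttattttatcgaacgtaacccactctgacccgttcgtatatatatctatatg
UGT78D1: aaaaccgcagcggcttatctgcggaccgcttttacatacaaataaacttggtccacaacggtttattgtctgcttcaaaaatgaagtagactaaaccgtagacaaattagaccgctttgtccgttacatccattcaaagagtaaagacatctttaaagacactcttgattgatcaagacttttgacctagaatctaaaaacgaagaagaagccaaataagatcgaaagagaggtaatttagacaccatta
The CHS window is chr5:4488226-4488475 on the plus strand, and its G-box starts 233 bases before the annotated start of the gene. The F3H window is chr3:19024942-19025191 on the plus strand, its G-box starts 249 bases before the start, and the antisense long noncoding gene AT3G51238 is annotated across it and into F3H. The MYB12 window is chr2:19476076-19476325 on the plus strand, with the G-box 118 bases before the start. The UGT91A1 window is chr2:9592706-9592955 on the plus strand and holds 1 ACGT core, which 44.1% of all windows hold. The UGT78D1 window is chr1:10814362-10814611 on the plus strand, holds none of the letters searched, and lies where AT1G06347 is annotated. A match describes letters and says nothing of binding.

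Values are CPM, read counts scaled by the mapped reads of a library, of the most abundant transcript of each gene, and 1 read was worth 0.0903 to 0.166 CPM in libraries of 6012747 to 11076919 mapped reads. The photosynthetic markers RBCS1A, LHCB2.1 and PSAD1 and the epidermal markers ATML1 and PDF1 were read in all 18 libraries at 77.6 CPM or more, and the floral genes AP3 and AG at no more than 0.372 CPM. At ZT9 some of these markers differed between the genotypes, with log2 differences (sob3-6 minus SOB3-D) of 1.92 for LHCB2.1 (limma adjusted p = 2.82e-05), 0.67 for ATML1 (0.00183), 0.48 for PDF1 (0.0317), 0.45 for PSAD1 (0.0474) and -0.46 for RBCS1A (0.232), and at ZT24 ATML1 differed by 0.46 (0.0131) while the other 4 did not pass. Their part in the results was not tested. The seed storage genes CRA1, CRU3 and OLEO1 summed to 25.9 to 682 CPM in sob3-6 at ZT4 and to 29.1 to 95.7 CPM in SOB3-D, and at ZT9 to 31.8 to 161 and 33.6 to 108 CPM. At ZT24 they summed to 53.5 to 340 CPM in sob3-6 and to 105 to 185 CPM in SOB3-D. The SOB3-D mean of this sum was 62.7 CPM at ZT9 and 147 CPM at ZT24. The part of these genes was not tested either. SOB3 itself was read at 133 to 235 CPM in SOB3-D and at 227 to 331 CPM in sob3-6, and since both genotypes carry the overexpressed copy this level does not check the labels. In whole seedlings, fewer cells of a type and less mRNA per cell cannot be told apart. None of the 10 genes shares a stretch of 84 bases with any annotated transcript from elsewhere.

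CHS stands at the entry of the flavonoid pathway. At ZT4 its mRNA stood at 123, 87.3 and 123 CPM in SOB3-D and at 89.9, 83.3 and 24.4 CPM in sob3-6, in replicates 1, 2 and 3. The groups overlapped there, and the third sob3-6 library lay far under the other two. At ZT9 the SOB3-D libraries held 191, 180.1 and 169 CPM and the sob3-6 libraries 89.3, 56.9 and 25.9 CPM. Every sob3-6 library at ZT9 lay under every SOB3-D library, and the means, 57.4 ± 31.7 against 180.1 ± 11.1 CPM (SD, n = 3), differed 3.14-fold. On the log2(CPM + 0.5) scale, where the pseudocount shrinks changes of low genes, CHS fell by 1.81 in sob3-6 (SE 0.35, limma adjusted p = 0.0144). Leaving out 1 library in turn gave an adjusted p of 0.00165 to 0.0633, above the threshold of 0.05 without SOB3-D replicate 1 (0.0633), SOB3-D replicate 2 (0.0545) or sob3-6 replicate 2 (0.0516). Over all genes 824 were called lower in the full fit, and 273, 335 and 302 without these libraries in that order. At ZT24 the values were 35.2, 15.3 and 24.4 CPM in SOB3-D and 32.6, 17.1 and 9.71 CPM in sob3-6, which overlapped (log2 difference -0.41, SE 0.41, limma adjusted p = 0.612).

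**Figure D1:**
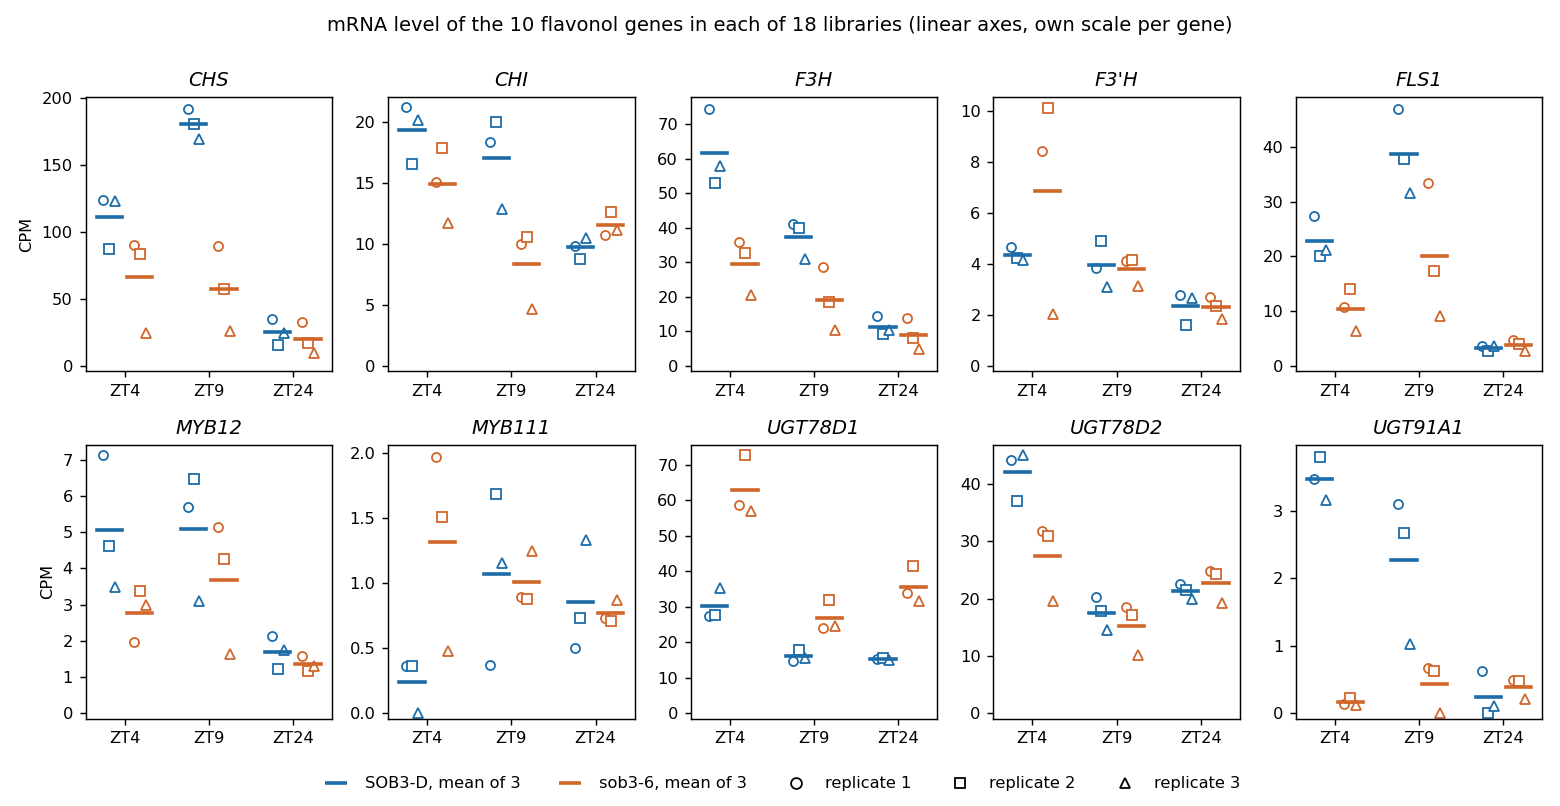
mRNA level in CPM of each of the 10 genes (1 panel a gene, linear axis of its own) at ZT4, ZT9 and ZT24. Symbols are single libraries by replicate number and lines are means of 3 libraries, SOB3-D in blue and sob3-6 in orange. CHS at ZT9 lies at 169 to 191 CPM in SOB3-D and at 25.9 to 89.3 CPM in sob3-6, while UGT78D1 lies higher in every sob3-6 library than in any SOB3-D library at each time point.

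Of the 10 members, 8 had a negative log2 difference at ZT9 and 2 a positive one, with a median of -0.76 against 0.03 over all 20462 genes tested. CHS was the 1 member that passed the test as lower in sob3-6, where 4.03% of all genes tested did so, and UGT78D1 the 1 member that passed as higher, where 6.00% did. The libraries of the genotypes did not overlap for 4 members lower in sob3-6 (CHS, CHI, F3H and UGT91A1), against 12.1% of all genes, and for 1 higher (UGT78D1), against 17.8%. UGT91A1 passed the minimum mean at ZT9 only through SOB3-D, so its place among the 8 and the 4 is a description. CHI and F3H lay close to the threshold. CHI was read at 18.3, 19.9 and 12.9 CPM in SOB3-D and at 9.93, 10.5 and 4.62 CPM in sob3-6, with a log2 difference of -1.04 (SE 0.29, limma adjusted p = 0.0547). F3H was read at 41.1, 39.997 and 30.9 CPM against 28.6, 18.4 and 10.4 CPM, with a log2 difference of -1.05 (SE 0.30, limma adjusted p = 0.0593). FLS1, the branch enzyme of the flavonols, was read at 46.9, 37.8 and 31.5 CPM against 33.5, 17.4 and 9.12 CPM, and the highest sob3-6 library exceeded the lowest SOB3-D library (log2 difference -1.10, SE 0.38, limma adjusted p = 0.103).

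Within each replicate set at ZT9 the sob3-6 library was the lower one in 3 of 3 pairs for 7 members, CHS, CHI, F3H, FLS1, UGT91A1, MYB12 and UGT78D2. The share of all genes with this pattern was not counted, so the 7 are a description. The groups of FLS1, MYB12 and UGT78D2 overlapped. A fit with the replicate set as a block called CHS, CHI, F3H, FLS1 and UGT91A1 lower, where it called 6.98% of all genes lower. This fit did not call MYB12 (limma adjusted p = 0.148) or UGT78D2 (0.279). It gave limma adjusted p of 0.000945 for CHS, 0.00189 for CHI, 0.00281 for F3H, 0.0047 for FLS1 and 0.00536 for UGT91A1, and it kept UGT78D1 as higher (0.00195), where 9.49% of all genes were. UGT91A1 passed the minimum mean at ZT9 only through SOB3-D, so its call is a description, also in any count here that holds it. edgeR's exact test on the recovered reads called 5 members lower and 5.74% of all genes, and DESeq2 called 4 members and 4.64%. edgeR's quasi-likelihood test and a TMM rescaling called 3 members each, beside 4.21% and 4.30% of all genes. The second transcript of F3H differed by -1.06 on the log2 scale and that of FLS1 by -1.11, close to the first, as reads that fit both transcripts were counted on each.

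At ZT4, the contrast behind the choice of UGT91A1, 7 members read lower and 3 higher in sob3-6 by the fitted log2 difference, with a median of -0.69 against 0.04 over 20515 genes. Libraries did not overlap for 5 members lower in sob3-6 (F3H, FLS1, MYB12, UGT78D2 and UGT91A1), beside 9.89% of all genes, and for 2 higher (MYB111 and UGT78D1), beside 17.4%. For MYB111 a SOB3-D count of 0 allows up to 0.499 CPM, above its lowest sob3-6 value of 0.478 CPM. UGT91A1 is counted in the 7, the 5 and the median although it was chosen on this difference, so its place there was fixed in advance. F3H was read at 74.4, 52.9 and 57.9 CPM in SOB3-D and at 35.9, 32.6 and 20.4 CPM in sob3-6 (log2 difference -1.07, SE 0.21). FLS1 was read at 27.5, 20.1 and 21.1 CPM against 10.7, 14.1 and 6.34 CPM (log2 difference -1.16, SE 0.25). Both enzyme genes were thus about as far apart at ZT4 as at ZT9, where their log2 differences were -1.05 and -1.10. CHS at -0.95 (SE 0.42) and CHI at -0.38 (SE 0.17) showed overlapping groups at ZT4.

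F3'H, whose product turns the kaempferol series into the quercetin series, gave small differences at ZT9 and ZT24. It was read at 4.65, 4.24 and 4.16 CPM in SOB3-D at ZT4 and at 8.44, 10.1 and 2.03 CPM in sob3-6, with 2 sob3-6 libraries above and 1 under all SOB3-D libraries. Its log2 difference was 0.36 (SE 0.46) at ZT4, -0.04 (SE 0.22, limma adjusted p = 0.94) at ZT9 and -0.0037 (SE 0.24, limma adjusted p = 0.996) at ZT24. Its difference at ZT9 turned to 0.11 without SOB3-D replicate 2 and to 0.08 without sob3-6 replicate 3.

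UGT91A1 had the third most negative log2 difference of all 20515 nuclear genes tested at ZT4. It was read at 3.47, 3.79 and 3.16 CPM in SOB3-D and at 0.141, 0.233 and 0.12 CPM in sob3-6, which is 99 reads over the 3 SOB3-D libraries and 4 reads over the 3 sob3-6 libraries. The fitted log2 difference of -2.58 (SE 0.24) rests on these few reads and on the pseudocount, and it was -3.78 with a pseudocount of 0.1 CPM and -1.94 with 1 CPM. At ZT9, in libraries that the choice did not use, SOB3-D held 3.1, 2.67 and 1.03 CPM and sob3-6 0.67, 0.627 and 0 CPM, the last of which allows up to 0.375 CPM at a limit of 3 reads. The groups did not overlap there, with 52 reads against 11, and the log2 difference was -1.57 (SE 0.44, limma adjusted p = 0.0545). UGT91A1 passed the minimum mean at ZT9 only through SOB3-D, with a mean of 2.26 CPM against 0.432 CPM in sob3-6. This ZT9 result is therefore a description. At ZT24 the gene was close to the limit in both genotypes, at 0 to 0.631 CPM in SOB3-D and 0.218 to 0.489 CPM in sob3-6, and did not reach the minimum mean of 0.5 CPM for the test. It was the 1 member of 10 that failed this minimum at any time point.

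Of the 2 flavonol 3-O-glycosyltransferase genes, UGT78D1 passed the test between the genotypes at ZT9 and ZT24 and UGT78D2 at neither. UGT78D1, the rhamnosyltransferase, was read at 27.4, 27.8 and 35.4 CPM in SOB3-D and 58.8, 72.8 and 57.1 CPM in sob3-6 at ZT4 (log2 difference 1.05, SE 0.14). At ZT9 it stood at 14.7, 17.8 and 15.5 CPM against 23.999, 32.0 and 24.5 CPM, and at ZT24 at 15.4, 15.7 and 14.96 CPM against 33.8, 41.5 and 31.6 CPM. At all 3 time points each sob3-6 library lay above each SOB3-D library. UGT78D1 rose in sob3-6 by 0.72 at ZT9 (log2 scale, SE 0.14, limma adjusted p = 0.0147) and by 1.18 at ZT24 (SE 0.11, limma adjusted p = 0.00073). The ZT24 call held without any 1 library (limma adjusted p = 0.00062 to 0.00471), and the ZT9 call was lost without SOB3-D replicate 1 (0.0695) or sob3-6 replicate 2 (0.0623).

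UGT78D2, the glucosyltransferase, was read at 44.1, 37.0 and 45.1 CPM in SOB3-D and at 31.8, 31.0 and 19.6 CPM in sob3-6 at ZT4 (log2 difference -0.63, SE 0.18). Its groups overlapped at ZT9 (log2 difference -0.22, SE 0.22, limma adjusted p = 0.603) and at ZT24 (0.09, SE 0.12, limma adjusted p = 0.729). The ratio of UGT78D1 to UGT78D2, taken within each library on CPM per kb of transcript, was 0.616, 0.849 and 0.91 in SOB3-D and 1.1, 1.58 and 2.05 in sob3-6 at ZT9, and 0.579, 0.622 and 0.639 against 1.16, 1.45 and 1.4 at ZT24. At both time points the lowest sob3-6 ratio exceeded the highest SOB3-D ratio. At ZT4 the mean ratio was 0.611 ± 0.074 in SOB3-D and 2.01 ± 0.45 in sob3-6 (SD, n = 3). Per kb, UGT78D1 was the less abundant of the pair in all 9 SOB3-D libraries and the more abundant in all 9 sob3-6 libraries. In CPM, not divided by length, both genes stood at 17.8 in SOB3-D replicate 2 at ZT9. In replicate 3 there UGT78D1 stood at 15.5 CPM, above UGT78D2 at 14.4.

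**Figure D2:**
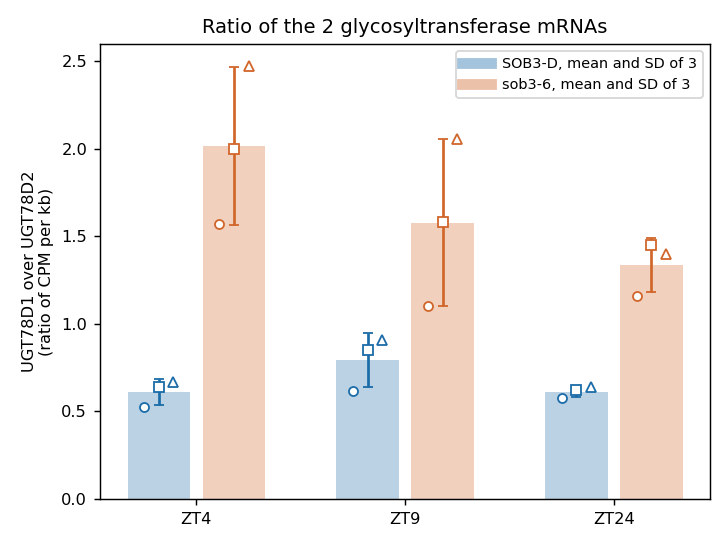
Ratio of UGT78D1 to UGT78D2 on CPM per kb of transcript at ZT4, ZT9 and ZT24. Bars are means of 3 libraries, error bars the SD, and symbols single libraries by replicate number (circle 1, square 2, triangle 3). All SOB3-D ratios (blue) lie at or under 0.91 and all sob3-6 ratios (orange) at or above 1.1.

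Both regulators had few reads. MYB12 was read at 7.12, 4.6 and 3.49 CPM in SOB3-D and 1.97, 3.37 and 2.99 CPM in sob3-6 at ZT4, with no overlap (log2 difference -0.74, SE 0.28). At ZT9 the values were 5.7, 6.46 and 3.09 CPM against 5.13, 4.26 and 1.62 CPM, and the sob3-6 library was the lower one in each of the 3 pairs, but the groups overlapped (log2 difference -0.48, SE 0.38, limma adjusted p = 0.501). MYB111 reached 1.97, 1.51 and 0.478 CPM in sob3-6 at ZT4 and 0.365, 0.361 and 0 CPM in SOB3-D, where the count of 0 allows up to 0.499 CPM. These are 31 reads against 8, and the log2 difference of 1.24 (SE 0.42) became 2.16 with a pseudocount of 0.1 CPM. The groups of MYB111 overlapped at ZT9, at 0.372 to 1.68 CPM in SOB3-D and 0.878 to 1.25 CPM in sob3-6 (limma adjusted p = 0.974), and at ZT24 (limma adjusted p = 0.947). For MYB111 at ZT4 the lowest sob3-6 library held 4 reads, as did SOB3-D replicates 1 and 2, and the limit of the 0 exceeds its 0.478 CPM. So MYB12 lay lower in sob3-6 at ZT4, while the separation of MYB111 is within its counting limit. This contrast is given here with no test.

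**Figure D3:**
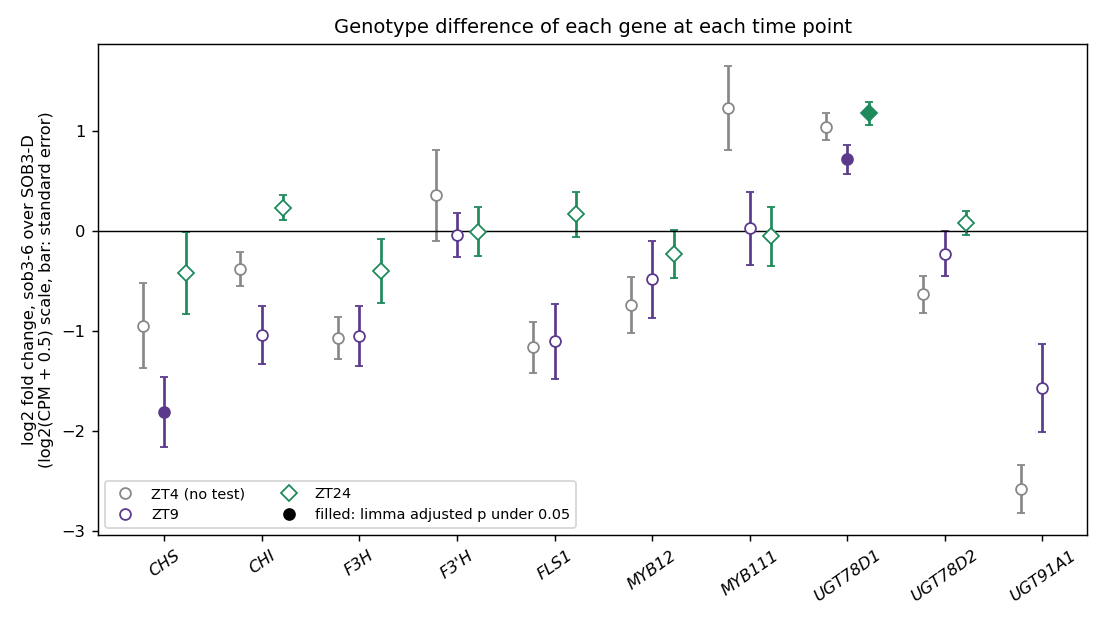
log2 fold change of sob3-6 over SOB3-D (log2(CPM + 0.5) scale) for each gene at ZT4 (grey, no test), ZT9 (purple) and ZT24 (green), with the standard error of the limma fit. Filled symbols have a limma adjusted p under 0.05, which are CHS and UGT78D1 at ZT9 and UGT78D1 at ZT24. UGT91A1 has no value at ZT24, where it missed the minimum mean.

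At dawn no enzyme gene passed the test between the genotypes. At ZT24, 9 members reached the minimum mean, and their median log2 difference was -0.0037 against 0.01 over 20530 genes. UGT78D1 was the 1 member called higher, where 4.91% of all genes were, and 0 members were called lower, where 1.85% were. At an unadjusted p under 0.05 limma also gave 0 lower members, and so did edgeR's 2 tests and DESeq2 at their adjusted p. CHI stood at 9.84, 8.77 and 10.5 CPM in SOB3-D and 10.7, 12.6 and 11.1 CPM in sob3-6, and FLS1 at 3.53, 2.68 and 3.69 against 4.76, 4.01 and 2.73 CPM. The libraries did not overlap for CHI and UGT78D1, both higher in sob3-6, against 16.0% of all genes (log2 difference of CHI 0.24, SE 0.13, limma adjusted p = 0.328).

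The change of the genotype difference from ZT9 to ZT24 was tested as an interaction in 1 fit of the 18 libraries. CHI was called, with a difference of 1.28 on the log2 scale between the genotype difference at ZT24 and that at ZT9 (SE 0.33, limma adjusted p = 0.0389), where 2.54% of 20567 genes were called in this direction and 1.48% in the other, which held 0 members. The call was lost without replicate 1 (0.269) or replicate 2 (0.324) of all groups. Over all genes 522 were called in this direction in the full fit, and 62 and 5 without these replicates. UGT91A1 changed by 1.91 in the fit (SE 0.53, limma adjusted p = 0.0524), FLS1 by 1.27 (SE 0.49, limma adjusted p = 0.184) and CHS by 1.40 (SE 0.69, limma adjusted p = 0.35), none of which passed. With the replicate set as a block, UGT91A1 (0.00893) and FLS1 (0.0461) passed as well as CHI (0.00547), where 4.26% of all genes did in this direction. UGT91A1 reached the minimum mean over the 18 libraries only through SOB3-D at ZT4 and ZT9, with means of 3.47 and 2.26 CPM. Its other groups had means under 0.5 CPM, so its results here, with or without the block, are descriptions.

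Over the night CHS, F3H, FLS1 and MYB12 fell in both genotypes. From ZT9 to ZT24, 6 members were called lower in SOB3-D, where 19.0% of all genes were, and 4 in sob3-6, where 13.6% were. FLS1 had the largest such difference, -3.36 in SOB3-D (SE 0.35, limma adjusted p = 4.69e-07) and -2.09 in sob3-6 (SE 0.35, limma adjusted p = 0.000148). CHS fell by 2.90 in SOB3-D (SE 0.49, limma adjusted p = 0.000121) and by 1.51 in sob3-6 (SE 0.49, limma adjusted p = 0.0288). The log2 differences were -1.70 and -1.05 for F3H and -1.31 and -1.06 for MYB12 in SOB3-D and sob3-6, with limma adjusted p of 0.000558 and 0.0261 for F3H and of 0.00526 and 0.0282 for MYB12. In SOB3-D CHI fell by 0.76 (limma adjusted p = 0.0158) and UGT91A1 fell by 1.89 (limma adjusted p = 0.000605), while in sob3-6 their log2 differences were 0.51 (limma adjusted p = 0.127) and 0.02 (limma adjusted p = 0.977). UGT91A1, counted among the 6, missed the minimum mean at ZT24 and passed it over the 18 libraries only through SOB3-D at ZT4 and ZT9. Its call is therefore a description. The count in SOB3-D came to 2 without replicate 2 of all groups and that in sob3-6 to 1, and without replicate 1 the sob3-6 count was 2. Without replicate 2 the calls lower over all genes went from 3903 to 2544 in SOB3-D and from 2806 to 1483 in sob3-6. In sob3-6 UGT78D1 rose by 0.41 (SE 0.14, limma adjusted p = 0.0355) and UGT78D2 by 0.60 (SE 0.21, limma adjusted p = 0.0396), where 12.3% of all genes rose. Leaving out a replicate number kept 0 or 1 of these 2 calls.

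Between ZT4 and ZT9 UGT78D1 and UGT78D2 fell in both genotypes. UGT78D1 fell by 0.89 in SOB3-D (SE 0.14, limma adjusted p = 6.47e-05) and by 1.22 in sob3-6 (SE 0.14, limma adjusted p = 3.23e-06). UGT78D2 fell by 1.25 (SE 0.21, limma adjusted p = 0.000125) and by 0.84 (SE 0.21, limma adjusted p = 0.00561). Of the 9 members tested, these were the 2 called lower in SOB3-D, where 12.5% of all genes were, and with CHI (log2 difference -0.85, limma adjusted p = 0.0122) the 3 called lower in sob3-6, where 9.34% were. In sob3-6 the CHI call was lost without replicate 1 (0.0618) or replicate 2 (0.063) of all groups and the UGT78D2 call without replicate 2 (0.0863), which left 1 of the 3. MYB111 rose by 1.03 in SOB3-D (SE 0.38, limma adjusted p = 0.0425), where 21.3% of all genes rose, from 8 reads to 24 in the 3 libraries, and the call was lost without replicate 2 (0.285) or replicate 3 (0.217). A further fit took the replicate number across all time points as a block. Whether equal numbers at different time points shared a plate is not stated. With this block F3H also fell in both genotypes (limma adjusted p = 0.00798 in SOB3-D, where 14.2% of all genes fell, and 0.0125 in sob3-6, where 11.0% fell). FLS1 rose in both with the block (0.0313 in SOB3-D, where 23.5% of all genes rose, and 0.0265 in sob3-6, where 18.8% rose). The same F3H and FLS1 differences, -0.71 and 0.74 in SOB3-D and -0.69 and 0.80 in sob3-6, had limma adjusted p of 0.101 to 0.146 without the block.

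Per kb of transcript, CHS led the set in SOB3-D at ZT4 with 65.3 CPM per kb, followed by F3H with 40.9 and UGT78D2 with 26.0, and none of these overlapped its neighbour in the order. CHI (17.3), UGT78D1 (15.8) and FLS1 (15.1) followed and overlapped. In sob3-6 at ZT4 CHS (38.7) and UGT78D1 (33.0) headed the order of means and overlapped, followed by F3H (19.6) and UGT78D2 (16.9). At ZT9 FLS1 moved to the second place in SOB3-D with 25.6 CPM per kb, beside F3H with 24.8, behind CHS with 106. At ZT24 CHS was down to 14.7 CPM per kb in SOB3-D, overlapping UGT78D2 at 13.1, and in sob3-6 UGT78D1 had the highest mean with 18.7 (16.6 to 21.7), above all values of UGT78D2 at 14.0 but overlapping CHS, which had a mean of 11.6 and ran from 5.7 to 19.1. MYB111 was last or next to last in every group, at 0.148 to 0.809 CPM per kb.

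Replicates of sob3-6 varied together in the enzyme genes. Relative to its own group mean, the average of the 5 enzyme genes in sob3-6 replicate 3 lay at -0.78 at ZT4, -0.71 at ZT9 and -0.44 at ZT24 on the log2 scale. Over the 9 SOB3-D libraries the same measure ran from -0.33 to 0.26. These within-group values of CHS and F3H correlated across the 18 libraries at a Pearson's r of 0.93, those of CHS and FLS1 at 0.86 and those of CHS and UGT78D2 at 0.85, while CHS and UGT78D1 gave 0.23 and CHS and MYB111 0.16. The values of 1 library share its depth, its plate and its mix of tissues, and these correlations are descriptions. COBL9, a root hair marker, read 13.2, 4.51 and 3.87 CPM in sob3-6 replicates 1, 2 and 3 at ZT9. There the root hair marker EXPA7 read 7.14, 2.63 and 2.12 CPM and the xylem marker IRX3 29.5, 24.2 and 15.6 CPM. The endodermis marker CASP1 read 33.4, 25.1 and 28.2 CPM. At ZT4 replicate 3 was again lowest for COBL9, EXPA7 and IRX3, and at ZT24 for EXPA7 only. The part of these markers was not tested. Without sob3-6 replicate 3 the log2 difference of CHS was -0.34 at ZT4 and -1.33 at ZT9, and the median over the 10 members at ZT4 was -0.38.

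**Figure D4:**
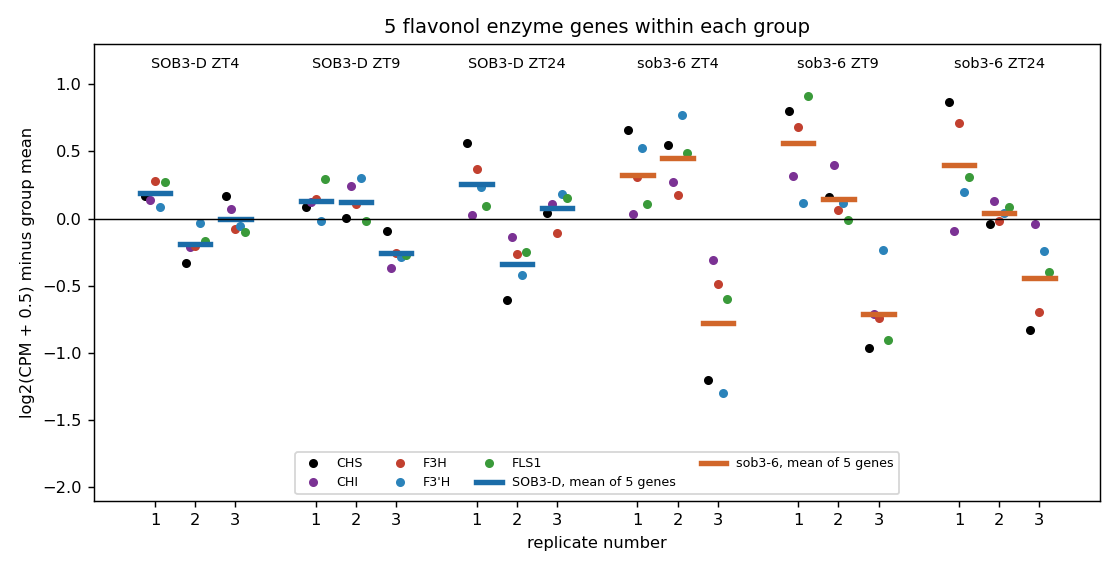
log2(CPM + 0.5) of the 5 enzyme genes minus the mean of their group, for each replicate of each group. Dots are single genes and bars the mean of the 5, blue in SOB3-D and orange in sob3-6. Replicate 3 of sob3-6 lies at -0.78, -0.71 and -0.44 at ZT4, ZT9 and ZT24.

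Outside the set, the genes whose profile over the 18 libraries was most like the mean of the 5 enzyme genes, among 15988 nuclear genes with a mean of at least 5 CPM, were AT4G39280 (annotated as a phenylalanine-tRNA ligase, Pearson's r of 0.95), AT1G44835 (0.93), AT3G05165 (0.92), GYRB1 (0.92) and CHIL (0.92), a chalcone isomerase-like gene of the same pathway. UGT91A1 was most like PKp3 (0.89), AT4G18810 (0.89), AT3G05400 (0.88), LPP2 (0.88) and Hsp70-15 (0.87). These are ranks of likeness over libraries that share genotype and time of day.

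Other genes of the pathway were followed in 5 lists. The 9 genes of the phenylpropanoid entry (PAL, C4H and 4CL genes, which supply coumaroyl-CoA) had a median log2 difference of 0.01 at ZT9 with 0 called (1 at an unadjusted p under 0.05, and 0 by edgeR's 2 tests and DESeq2). Of 9 further flavonol genes (CHIL, FLS3, FLS5, UGT78D3, UGT73C6, UGT89C1, RHM1, OMT1 and BGLU15), 8 were tested, with a median of -0.16 and 0 called (1 at an unadjusted p under 0.05, and 0 by those tools). At ZT4, PAL3 was called higher (log2 difference 0.61, SE 0.12, limma adjusted p = 0.0192) among the 9 entry genes, where 4.29% of all genes were, with 0 lower, and UGT89C1, a flavonol rhamnosyltransferase gene, was called lower (-0.50, SE 0.12, limma adjusted p = 0.0483) among the 8 further genes, where 2.46% were, with 0 higher. At ZT24, where 4.91% of all genes were higher, 2 entry genes were called higher, PAL3 with the larger difference (log2 0.71, SE 0.13, limma adjusted p = 0.0129) and 4CL1, and UGT73C6, a flavonol glucosyltransferase gene, was called higher among the 8 (1.03, SE 0.23, limma adjusted p = 0.028). UGT73C6 shares 1.69% of its 84-base stretches with its neighbour AT2G36800, so some of its reads are uncertain. With the replicate set as a block UGT73C6 passed as higher at ZT4 too (limma adjusted p = 0.0485), where the block called 1239 of 20515 genes higher. CHIL joined it at ZT24 (limma adjusted p = 0.048), where the block called 8.34% of all genes higher.

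In the anthocyanin and proanthocyanidin branch, which competes with FLS1 for dihydroflavonols, 9 of 11 genes were tested at ZT9, with a median log2 difference of -0.49 and 0 called (1 at an unadjusted p under 0.05, and 0 by edgeR's 2 tests and DESeq2). Dihydroflavonol reductase (DFR), the first enzyme of that branch, was the 1 gene of this list lower with the block (limma adjusted p = 0.00336). The block called 6.98% of all genes lower at ZT9, and DFR is named after its values were seen. It was read at 5.95, 8.84 and 2.32 CPM in SOB3-D and 0.781, 4.01 and 0.375 CPM in sob3-6 at ZT9 (log2 difference -1.69, SE 0.61, limma adjusted p = 0.121), and at 3.28, 4.24 and 2.83 against 16.0, 17.5 and 2.03 CPM at ZT4. So 2 of 3 sob3-6 libraries lay above SOB3-D at ZT4 and all 3 pairs lay under at ZT9. Of a list of MYB, bHLH and WD40 regulators, which also holds MYB11 and CPC, 7 of 11 were tested at ZT9, with a median of 0.01 and 0 called (0 at an unadjusted p under 0.05, and 0 by those tools). At ZT4 limma called 0 genes of either list (0 at an unadjusted p under 0.05, and 0 by those tools). At ZT24 it called 0 of 8 branch genes (3 at an unadjusted p under 0.05, and 1 by edgeR's exact test) and 0 of 6 regulators (1 at an unadjusted p under 0.05, and 0 by those tools). With the block the repressor gene MYB4 was higher at ZT24 (limma adjusted p = 0.0376), where the block called 8.34% of all genes higher.

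Among 13 genes that connect light to flavonoids, 5 of 12 tested were lower in sob3-6 at ZT4, against 2.46% of all genes, and 0 higher, against 4.29%, with a median log2 difference of -0.63. They were HYH, the homologue of HY5 (-1.32, SE 0.26, limma adjusted p = 0.0206), RUP2, a repressor of the ultraviolet-B receptor UVR8 (-1.04), and the B-box genes BBX22 (-0.94), BBX25 (-0.81) and BBX32 (-1.52), named after their values were seen. At ZT4, 8 of the 12 had an unadjusted p under 0.05. edgeR's quasi-likelihood test called 5, its exact test 6 and DESeq2 6. HY5 was read at 19.7, 12.5 and 20.1 CPM in SOB3-D and at 11.7, 12.7 and 8.37 CPM in sob3-6 (log2 difference -0.64, SE 0.22, limma adjusted p = 0.12). The study's own edgeR analysis listed HY5 as induced by AHLs at ZT4, which means lower in sob3-6. At ZT9 none of those 5 was called, and 2 of 11 tested were higher, against 6.00% of all genes, BBX24 by 0.91 (SE 0.12, limma adjusted p = 0.00277) and UVR8 by 0.40 (SE 0.08, limma adjusted p = 0.0153). With the block BBX20 (limma adjusted p = 0.0171) and BBX21 (0.0379) were lower at ZT9, where the block called 6.98% of all genes lower. At ZT24 BBX21 fell by 0.77 in sob3-6 (SE 0.08, limma adjusted p = 0.00127), at 182 to 191 CPM in SOB3-D and 97.0 to 121 CPM in sob3-6. With the block HYH (limma adjusted p = 0.0122) was lower and UVR8 (0.0279) higher too, where the block called 4.70% of all genes lower and 8.34% higher.

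**Figure D5:**
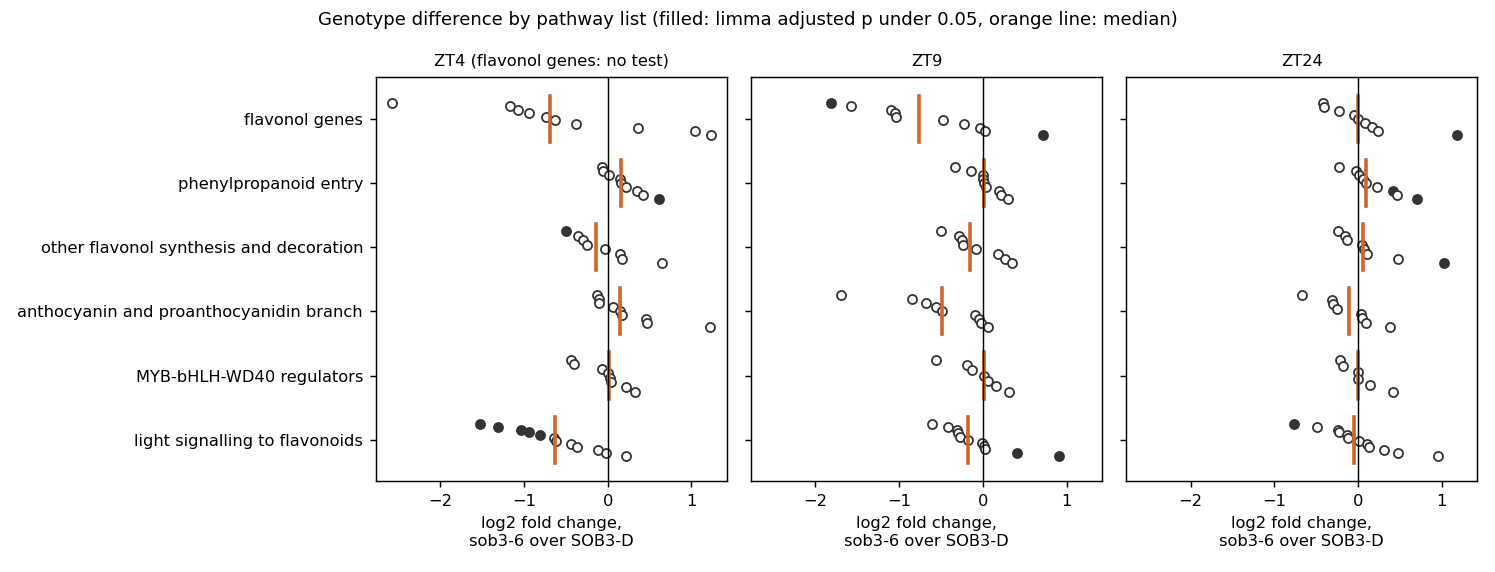
log2 fold change of sob3-6 over SOB3-D for each tested gene of the 10 flavonol genes and of 5 further lists at ZT4, ZT9 and ZT24 (horizontal axis, log2(CPM + 0.5) scale). Each dot is a gene, filled where the limma adjusted p is under 0.05 (the flavonol genes carry no test at ZT4), and the orange line is the list's median. At ZT9 the flavonol genes have a median of -0.76 and the phenylpropanoid entry genes of 0.01.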

How the data were processed

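mRNA was measured in 18 libraries of whole seedlings, 2 genotypes by 3 time points with 3 replicates each, grouped by the GEO labels. The authors mapped the reads to TAIR10 cDNA sequences with Bowtie, counted all best hits per transcript and divided by the mapped reads, and deposited a signal in CPM for each of 32811 transcripts. A read that hit several transcripts was counted on each, and whether counting used strand is not given in the sources used here, so an antisense partner, as at F3H, cannot be told apart. The steps between low values gave whole reads for 100% of values (tolerance 0.02) and a median depth of 8199501.5 mapped reads, so 1 read sets the precision of low values, and the limit of 3 reads covers counting error only.

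The test was limma's moderated test (two-sided, variance trended on mean level) on log2(CPM + 0.5), per time point, for transcripts whose 6 libraries averaged 0.5 CPM or more. p-values were adjusted after Benjamini-Hochberg across every transcript in the test. Interactions and differences between time points came from 1 fit of the 18 libraries, with the same minimum set on the mean of all 18. Gene shares count 1 nuclear gene by its transcript with the highest mean. Reads recovered from the CPM were tested with edgeR (quasi-likelihood and exact) and DESeq2, and edgeR's quasi-likelihood test called 1880 genes at ZT9 and 1343 at ZT24. Alternatives further changed the pseudocount (0.1 or 1 CPM), dropped the filter or raised it to 5 CPM, rescaled by TMM, fitted all 18 libraries at once, added the replicate set as a block, and dropped every library or replicate number in turn. For differences between time points this block was the replicate number across all time points. Scripts were tested on simulated counts. Since the study harvested both genotypes of a replicate set from the same plate or plates, the numbers pair the samples: same-numbered libraries of the 2 genotypes correlated at 0.124 to 0.41 after group means were removed, others at -0.316 to 0.163.

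The members and lists were chosen with earlier results of these data known. All 10 members are named, the lists are given by counts and medians with the largest called change in each direction at ZT9 and ZT24, and likeness is ranked by Pearson's r on log2(CPM + 0.5). The regulators MYB113 and MYB114 had 0 transcripts with CPM values, so 11 of the 13 listed regulators were followed. Columns of every sample were used. R 4.3.3, limma 3.58.1, edgeR 4.0.16, DESeq2 1.42.0, Python 3.11.15, pandas 2.3.3, numpy 2.4.6 and matplotlib 3.10.9 were used.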

Additional observations from a re-analysis of the deposited data

Results flagged for a closer look

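The genotype difference of CHI at ZT24 exceeded that at ZT9 by 1.28 on the log2 scale (SE 0.33, limma adjusted p = 0.0389 for the interaction), with sob3-6 lower in 3 of 3 pairs at ZT9 and higher in 3 of 3 pairs at ZT24. Its groups did not overlap at either time point. The interaction had an adjusted p of 0.013 to 0.324 when 1 replicate number was left out, and 0.00268 to 0.0552 under the other alternatives.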

How the results depend on the processing

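At ZT9 the count of members called lower, 1 with limma, was 3 after TMM rescaling, 3 with edgeR's quasi-likelihood test, 5 with edgeR's exact test, 4 with DESeq2, 5 with the replicate block and 5 in one fit of all 18 libraries, and 0 to 3 with a library left out. The cause was not tested, although the block removes differences between plates by construction. Where these counts hold UGT91A1, its call is a description. The count called higher was 0 to 1 with a library left out. Over all genes limma called 824 lower and 1227 higher at ZT9, and 273 to 943 lower and 431 to 1243 higher with a library left out. Counts at ZT24 were the same under all alternatives run. For the interaction the count of 1 was 2 with a pseudocount of 1 CPM, 3 with the replicate block and 0 to 1 with a replicate number left out. For ZT9 minus ZT4 in SOB3-D the count called higher, 1, was 0 with a pseudocount of 1 CPM, 0 with a minimum of 5 CPM (MYB111 is then not tested), 0 with edgeR's quasi-likelihood test, 0 with DESeq2, 2 with the replicate block and 0 to 1 with a replicate number left out. In sob3-6 the counts were 1 to 4 lower and 0 to 1 higher with a replicate number left out, and 1 higher with DESeq2 and with the replicate block. For ZT24 minus ZT9, leaving out a replicate number gave 2 to 7 lower in SOB3-D and 1 to 4 lower and 0 to 1 higher in sob3-6, and no filter gave 1 higher in sob3-6. edgeR's exact test was planned and run for the genotype contrasts only. The replicate block changed no call of a member other than those printed beside the results. At ZT4 the median log2 fold change ran from -0.80 to -0.38 with a library left out.

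Differences whose sign turned are given next, with the range over fits that left out a library or replicate number. At ZT9 F3'H ran from -0.18 to 0.11, UGT78D2 from -0.38 to 0.039 and MYB111 from -0.35 to 0.32, and MYB111 was -0.094 and -0.095 with edgeR's quasi-likelihood and exact tests and -0.11 with DESeq2. At ZT24 F3'H ran from -0.21 to 0.12 and MYB111 from -0.24 to 0.19. At ZT4 F3'H ran from -0.027 to 1.01. For the interaction F3'H ran from -0.29 to 0.27 and MYB111 from -0.44 to 0.13. For ZT9 minus ZT4 CHI ran from -0.41 to 0.030 and MYB12 from -0.23 to 0.15 in SOB3-D, and CHS from -0.28 to 0.037, MYB12 from -0.21 to 0.74 and MYB111 from -0.69 to 0.15 in sob3-6. For ZT24 minus ZT9 MYB111 ran from -0.34 to 0.17 and UGT78D1 from -0.11 to 0.0079 in SOB3-D. UGT91A1 in sob3-6 ran from -0.23 to 0.15, and was -0.0087 at the pseudocount of 1 CPM, -0.16 by the quasi-likelihood test and -0.14 by DESeq2. In all, 29 of 959 values of single members turned sign under an alternative and 851 kept sign and side of the threshold or moved by less than the replicate spread. Few reads limit MYB111 and UGT91A1.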
